A study of Sus scrofa with 12 samples.

Results

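The genes described here form the route by which calcium crosses the outer membrane and the mitochondrial membrane of a cell and is then read by calmodulin and calcineurin. The list holds 40 genes and was drawn up by function, with earlier results of these data known. It takes in pore and auxiliary subunits of voltage-gated channels, TRP and Piezo channels, calcium pumps and exchangers, mitochondrial uptake, calmodulin with its kinases, calcineurin, the NFAT factors and the RCAN regulators. Of the 40, 37 had a row under their symbol among the 31908 genes of the count table, and 36 were among the 13216 genes with enough counts to be tested. CACNA1C, CALM2 and PPP3CC had no row under their symbols, and SLC8A1, the sodium-calcium exchanger of the heart, had 0 to 13 counts per library and was not tested. Channels and auxiliary subunits that admit calcium are opposed by pumps that expel it. Inside the cell, calcium bound to calmodulin activates the CaM kinases and calcineurin, the phosphatase that sends NFAT transcription factors to the nucleus, while the RCAN proteins bind calcineurin and restrain it. In valve interstitial cells, the fibroblast-like cells of the heart valve, this route has been studied for its part in myofibroblast activation and calcification.

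The cells were porcine aortic valve interstitial cells (paVICs) of wild-type animals, cultured with 1% serum and exposed for 24 h. RNA sequencing covered 12 libraries in 4 groups of 3: vehicle, 10 μM LPC (lysophosphatidylcholine, a lipid of oxidized lipoprotein), 60 μM dantrolene (an inhibitor of the ryanodine receptor, the calcium release channel of the internal store), and LPC + dantrolene. LPC was given in ethanol and dantrolene in DMSO. The vehicle group received 0.6% DMSO and 0.1% ethanol, the LPC group also received 0.6% DMSO, and the dantrolene group 0.1% ethanol. Each group had 1 library from each of 3 isolations, an isolation being cells pooled from the valves of several hearts and treated on a day of its own. Levels are in CPM, with library totals scaled by TMM factors. A gene was called where its p from edgeR's quasi-likelihood test, adjusted over all tested genes by the Benjamini-Hochberg method, was under 0.05.

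Total counts were 16489684 to 24105935 per library, and a level of 3 counts, taken as the floor of counting error alone, equalled 0.114 to 0.186 CPM. Among cell type markers, the summed CPM of 10 interstitial and fibroblast genes was 63705 to 73064 in vehicle, 44520 to 67497 with LPC, 45412 to 57966 with dantrolene and 51036 to 81776 with LPC + dantrolene. That of 4 smooth muscle genes was 1415 to 2533 in vehicle, 1181 to 2305 with LPC, 1035 to 1315 with dantrolene and 571 to 1896 with LPC + dantrolene, so both sums were lower than vehicle in every library of dantrolene alone. The summed CPM of 3 activated myofibroblast genes was 21762 to 33167 in vehicle and 14840 to 24552 with LPC. It was 14481 to 21857 with dantrolene and 8964 to 31070 with LPC + dantrolene, so all treated groups overlapped with vehicle. The 6 immune markers summed to 12.4 to 28.5 CPM, with CD14 at 10.3 to 24.5 CPM and CD68 at 0.760 to 3.17 CPM, while PTPRC and CD3E were at 0 in all 12 libraries. The 4 cardiomyocyte markers with a row summed to at most 0.870 CPM, with TNNT2 at 0. The summed CPM of 8 endothelial markers was 102 to 110 in the vehicle libraries and 58.2 to 81.5 in the treated libraries, with PECAM1 between 23.6 and 44.1 and CDH5 between 13.0 and 37.7 CPM, and KDR not above 0.238 CPM. The part of these marker levels in the differences from vehicle was not tested. TMM factors also moved with treatment, at 0.879 to 0.918 in the vehicle libraries and 0.923 to 1.15 in all treated libraries except the LPC + dantrolene library of isolation 2, which had 0.863. That library stood apart, in the listed genes and over all tested genes alike. Deviations were taken from the mean of the other libraries of the same group. The median absolute deviation of the members was 0.88 on the log2 scale, against 0.11 to 0.56 in the other 11 libraries. Over all tested genes it was 0.83, against 0.14 to 0.59. In cultured cells sequenced in bulk, fewer cells expressing a gene and less RNA per cell cannot be told apart.

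The first comparison asked which of these genes responded to LPC. Compared to vehicle, 5 of the 36 tested members were upregulated (13.9%) and 0 were downregulated. They were the voltage-gated channel subunit CACNA2D1, the channels TRPC1 and TRPM7, the membrane pump ATP2B1 and the calcineurin catalytic subunit PPP3CA. Over all tested genes, 8.54% were called higher and 0.144% lower in this comparison. No member had an unadjusted p under 0.05 in the lower direction, and DESeq2 called 0 lower. In 5 of the 10 roles no member was called in any comparison, namely the voltage-gated pores, the Piezo channels, mitochondrial uptake, calmodulin with its kinases, and the NFAT factors. The median log2 fold change of the 36 members was -0.10, with 15 above and 21 below 0, beside -0.18 over all tested genes. Values of 6 members in the LPC libraries lay above all vehicle values, the 5 called and CAMK2D, and 3 lay below (CACNB3, TRPM4 and PIEZO1), beside 16.6% and 10.6% of all tested genes. The calls numbered 2, TRPM7 and CACNA2D1, without vehicle replicate 2, vehicle replicate 3 or LPC replicate 2, and 3 without LPC replicate 1, while the share of all tested genes called higher was 4.9% to 5.58% in these fits.

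Dantrolene alone raised the same 5 members against vehicle, and 0 were called lower. The background was 7.54% of all tested genes higher and 1.26% lower. RCAN2, PIEZO1 and PIEZO2 had an unadjusted p under 0.05 in the lower direction, with adjusted p of 0.0633, 0.167 and 0.169, and DESeq2 also called 0 lower. The median log2 fold change was -0.05 for the members and -0.11 for all tested genes. Values of 8 members lay above all vehicle values (the 5 called, CAMK2D, PPP3CB and NFATC2) and 4 below (PIEZO1, PIEZO2, VDAC1 and RCAN2), beside 16.1% and 11% of all tested genes. The comparison uses the same 3 vehicle libraries as the one with LPC. The calls numbered 1, TRPM7, without vehicle replicate 2 or 3, 2 without dantrolene replicate 2 and 3 without LPC replicate 2, while the share of all tested genes called higher was 2.77% to 5.22% in these fits.

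With LPC + dantrolene, TRPC1, TRPM7, ATP2B1 and PPP3CA were upregulated against the same vehicle libraries and RCAN2, a calcineurin regulator, was downregulated. Over all tested genes, 6.23% were called higher and 0.9% lower. The median log2 fold change was 0.06 for the members and -0.08 for all tested genes. Values of 4 members lay above all vehicle values (CACNA1D, CACNB2, TRPM7 and NFATC2) and 3 below (TRPV2, PKD2 and RCAN2), beside 4.71% and 5.74% of all tested genes. Of the 4 members called higher, only TRPM7 had no overlap with vehicle, because the LPC + dantrolene library of isolation 2 lay within or below the vehicle range for the other 3. Without that library 6 members were called higher, adding CACNA2D1 and CAMK2D, and 3 lower, which were PIEZO2, VDAC1 and RCAN2, beside 12.6% higher and 2.89% lower of all tested genes. The higher calls numbered 2 (TRPC1 and TRPM7) with the isolation as a block, and likewise without vehicle replicate 2, vehicle replicate 3, LPC replicate 2 or LPC + dantrolene replicate 1. Only TRPM7 was left without LPC + dantrolene replicate 3. The share of all tested genes called higher was 3.42% to 4.41% in the block fit and these omissions. RCAN2 was not called without LPC + dantrolene replicate 3 or vehicle replicate 2, on total counts alone, or with only the 2 groups compared.

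**Figure D1:**
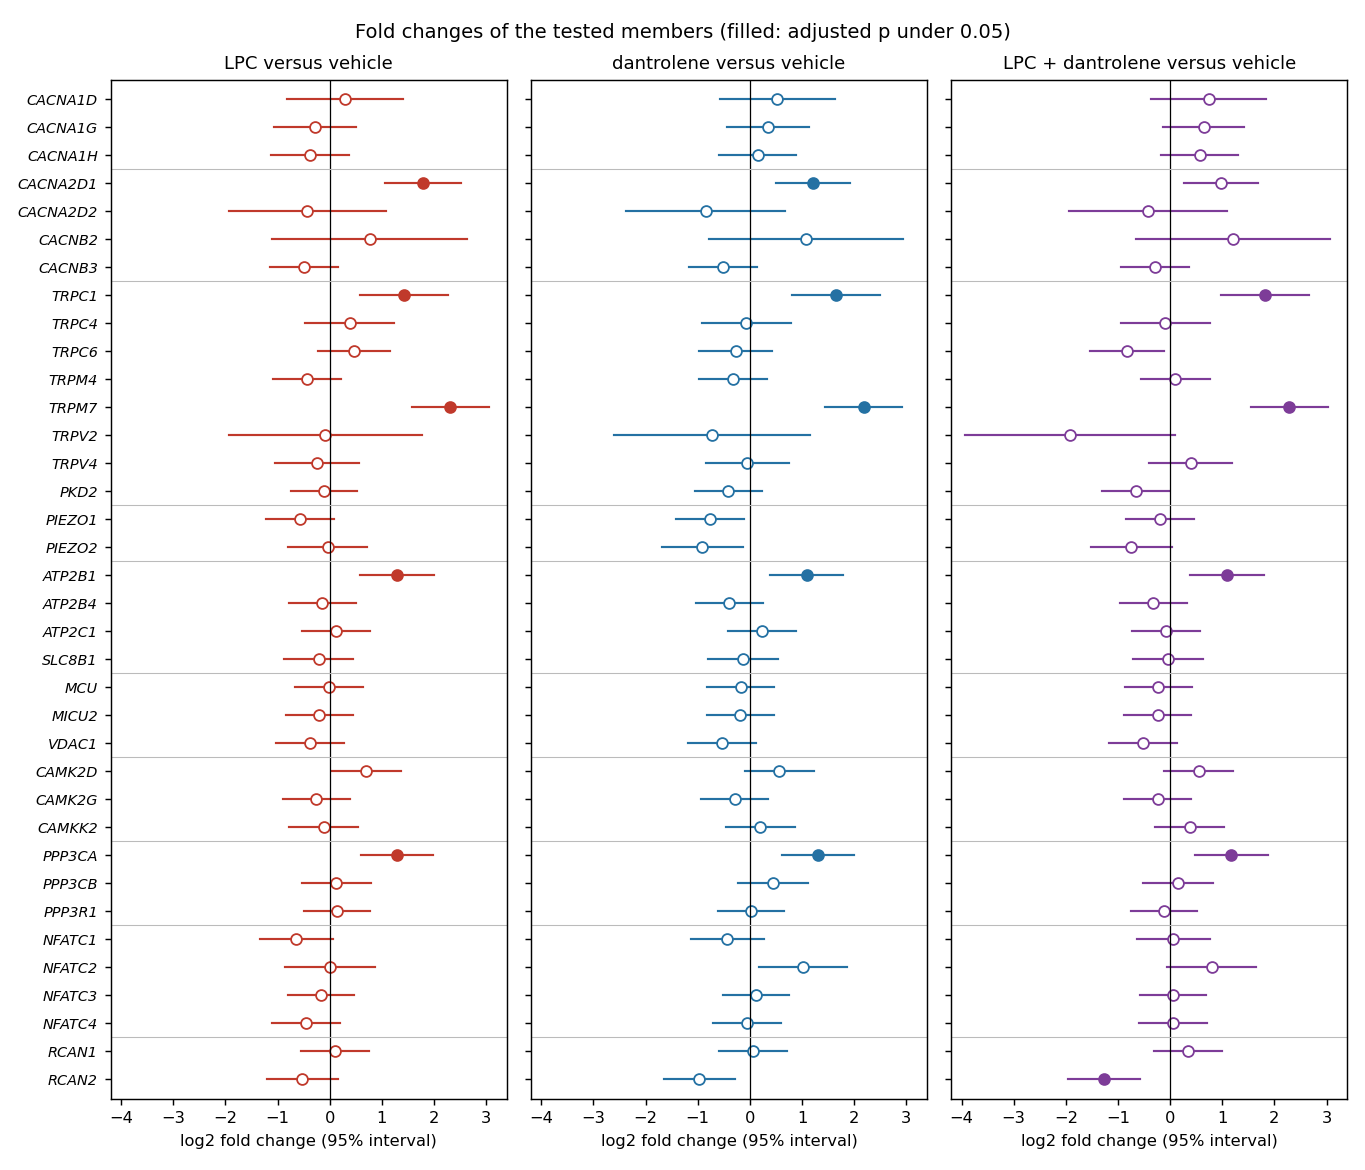
Log2 fold change (x axis) of the 36 tested members (y axis, ordered by role, with lines between roles) for each treatment compared to vehicle, with 95% intervals from the edgeR fit (n = 3 libraries per group). Filled points are called genes: 5 with LPC, the same 5 with dantrolene, and with LPC + dantrolene 4 of them and RCAN2, the only filled point below 0.

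Across the 3 comparisons with vehicle, 6 members were called at least once, 5 of them higher, and 30 were not called in any. Of the 13216 tested genes, 1278 were called higher in at least 1 of these comparisons. The members TRPC1, TRPM7, ATP2B1 and PPP3CA were called higher in all 3, and these 4 calls share the vehicle libraries. The share of all tested genes called higher in all 3 was not counted.

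Among the pore subunits of voltage-gated channels, CACNA1D, CACNA1G and CACNA1H were tested and none was called in any comparison. CACNA1H, the pore of a T-type channel that opens at low voltage, had the highest mean level of the 3 and is given as the example. It measured 170, 53.6 and 67.3 CPM in vehicle libraries 1 to 3, 45.0, 111 and 68.6 with LPC, 158, 49.5 and 116 with dantrolene, and 57.5, 223 and 150 with LPC + dantrolene. All 4 groups overlapped. The log2 fold changes from vehicle were -0.38, 0.15 and 0.56, with adjusted p from edgeR of 0.662, 0.890 and 0.607. CACNA1D, the pore of an L-type channel, stayed between 1.30 and 3.81 CPM, and CACNA1G, another T-type pore, between 2.77 and 9.87 CPM. With LPC + dantrolene against LPC, CACNA1H and CACNA1G differed by 0.94 and 0.92 on the log2 scale, with adjusted p of 0.473 and 0.564. A gene paired with CACNA1C, the main L-type pore, by identifier but without a symbol in the count table measured 16.6 to 40.5 CPM and was not called, with log2 fold changes of -0.44, -0.33 and -0.14 from vehicle.

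The auxiliary subunits carry channels to the membrane and tune their opening. CACNA2D1 (Sscrofa11.1 chr9:97781057-98265925), the alpha2delta subunit that also binds gabapentin, measured 26.0, 17.9 and 12.6 CPM in the vehicle libraries, 65.3, 64.8 and 65.6 with LPC, 32.9, 57.1 and 41.1 with dantrolene, and 48.7, 12.4 and 50.2 with LPC + dantrolene. Every LPC and dantrolene library was above every vehicle library, and the LPC + dantrolene library of isolation 2 was below all of them. CACNA2D1 was upregulated 3.46-fold with LPC (log2 1.79, SE 0.36, adjusted p = 0.000170) and 2.32-fold with dantrolene (log2 1.21, SE 0.36, adjusted p = 0.0167). With LPC + dantrolene the log2 fold change was 0.98 with an adjusted p of 0.0866. The call with LPC held in all 19 alternatives, and that with dantrolene was lost without vehicle replicate 2, vehicle replicate 3, LPC replicate 2 or dantrolene replicate 2. The beta subunits CACNB2 and CACNB3 and the second alpha2delta subunit CACNA2D2 were not called. CACNB3 measured 76.8 ± 17.4 CPM in vehicle and 54.7 ± 1.68 CPM with LPC (mean ± SD, n = 3), with an adjusted p of 0.538.

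TRP channels are cation channels gated by lipids, receptors, temperature and stretch, and PKD2 is the polycystin channel of cilia and internal membranes. Of these 8 members, TRPC1 and TRPM7 were upregulated in every comparison with vehicle and the other 6 were called in none. TRPM7 (Sscrofa11.1 chr1:121146093-121250227), a channel for magnesium and calcium fused to a kinase, showed the largest log2 fold change of any member. It measured 8.63, 6.01 and 5.11 CPM in the vehicle libraries, 33.3, 33.7 and 31.5 with LPC, 18.6, 44.5 and 26.6 with dantrolene, and 40.2, 13.4 and 43.1 with LPC + dantrolene. No treated library overlapped with vehicle. The upregulation was 4.97-fold with LPC (log2 2.31, SE 0.37, adjusted p = 4.59e-06), 4.53-fold with dantrolene (log2 2.18, SE 0.37, adjusted p = 1.71e-05) and 4.89-fold with LPC + dantrolene (log2 2.29, SE 0.37, adjusted p = 1.14e-05). These calls held in all 19 alternatives for each comparison, with log2 fold changes from 1.78 to 2.71.

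TRPC1 (Sscrofa11.1 chr13:83436343-83498419), a channel linked to receptor and store-operated calcium entry, measured 4.43, 2.74 and 1.16 CPM in the vehicle libraries, 6.35, 10.1 and 6.17 with LPC, 5.36, 9.56 and 11.5 with dantrolene, and 10.9, 3.66 and 15.1 with LPC + dantrolene. The LPC and dantrolene libraries were all above vehicle, and the LPC + dantrolene library of isolation 2 fell inside the vehicle range. TRPC1 was upregulated 2.69-fold with LPC (log2 1.43, SE 0.42, adjusted p = 0.0166), 3.15-fold with dantrolene (log2 1.65, SE 0.42, adjusted p = 0.00448) and 3.53-fold with LPC + dantrolene (log2 1.82, SE 0.43, adjusted p = 0.00164). With the isolation as a block, the adjusted p with LPC was 0.0666 and the call was lost. The LPC call was also lost without vehicle replicate 2, vehicle replicate 3, LPC replicate 1 or LPC replicate 2, the dantrolene call without vehicle replicate 2 or 3, and the LPC + dantrolene call without LPC + dantrolene replicate 3.

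TRPC6, a channel opened by diacylglycerol and itself a known NFAT target, had the smallest adjusted p of any member for LPC + dantrolene against LPC. It measured 11.1, 20.2 and 23.7 CPM with LPC and 9.25, 6.46 and 6.62 CPM with LPC + dantrolene, in vehicle 17.2, 9.22 and 13.3 CPM, and with dantrolene 13.2, 10.8 and 8.84 CPM. All LPC + dantrolene values were below all LPC values. On the log2 scale this was -1.30 with an adjusted p of 0.0763, so the difference did not pass the threshold. The remaining members of this role, TRPC4, TRPM4, TRPV2, TRPV4 and PKD2, had log2 fold changes from vehicle between -1.91 and 0.39. The lowest belonged to TRPV2, which was at 0 in dantrolene replicate 2 and LPC + dantrolene replicate 1 and did not exceed 1.85 CPM in any library.

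The Piezo channels open when the membrane is stretched. PIEZO1 measured 234, 228 and 188 CPM in the vehicle libraries, 185, 90.5 and 162 with LPC, 156, 95.3 and 131 with dantrolene, and 138, 245 and 186 with LPC + dantrolene. The LPC and dantrolene libraries were all below vehicle and the LPC + dantrolene libraries spanned it. The log2 fold changes were -0.57, -0.77 and -0.19, with adjusted p of 0.427, 0.167 and 0.932 from edgeR, and none passed. PIEZO2 measured 9.81 CPM or less in all but 2 libraries, vehicle replicate 1 (14.8 CPM) and LPC replicate 3 (15.8 CPM), and its log2 fold change with dantrolene was -0.91 with an adjusted p of 0.169.

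The pumps ATP2B1 and ATP2B4 expel calcium through the outer membrane, ATP2C1 fills the Golgi, and SLC8B1 releases calcium from mitochondria. ATP2B1 (Sscrofa11.1 chr5:92935688-93061406) measured 16.4, 14.2 and 11.6 CPM in the vehicle libraries, 36.7, 36.7 and 29.7 with LPC, 24.7, 37.4 and 27.4 with dantrolene, and 38.0, 10.7 and 41.2 with LPC + dantrolene. All LPC and dantrolene libraries were above vehicle, and the LPC + dantrolene library of isolation 2 was below every vehicle library. ATP2B1 was upregulated 2.45-fold with LPC (log2 1.29, SE 0.35, adjusted p = 0.00798), 2.12-fold with dantrolene (log2 1.09, SE 0.35, adjusted p = 0.0356) and 2.13-fold with LPC + dantrolene (log2 1.09, SE 0.35, adjusted p = 0.0398). With the isolation as a block, the adjusted p was 0.0857 with dantrolene and 0.141 with LPC + dantrolene, and both calls were lost. The call with LPC was lost without vehicle replicate 2 or 3 or LPC replicate 1 or 2. The call with dantrolene was lost without any 1 of the vehicle libraries, LPC replicate 1 or 2, or dantrolene replicate 2 or 3, and that with LPC + dantrolene without any 1 of the vehicle libraries, LPC replicate 1 or 2, or LPC + dantrolene replicate 1 or 3. ATP2B4, the other membrane pump listed, was not called, with log2 fold changes of -0.14, -0.39 and -0.32. ATP2C1 and SLC8B1 had log2 fold changes between -0.21 and 0.24.

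Mitochondrial uptake runs through VDAC1 in the outer membrane and MCU with its gatekeeper MICU2 in the inner membrane. VDAC1 measured 306, 359 and 354 CPM in the vehicle libraries, 195, 319 and 273 with LPC, 284, 184 and 237 with dantrolene, and 157, 339 and 212 with LPC + dantrolene. The dantrolene libraries were all below vehicle, and the other treated groups overlapped with it. The log2 fold changes were -0.37, -0.53 and -0.53, with adjusted p of 0.636, 0.469 and 0.548. MCU and MICU2 had log2 fold changes from vehicle between -0.24 and -0.01.

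Of calmodulin and its kinases, CAMK2D, CAMK2G and CAMKK2 were tested and none was called. CAMK2G, the subunit with the highest mean CPM, measured 159, 141 and 148 CPM in the vehicle libraries, 124, 104 and 147 with LPC, 166, 78.9 and 120 with dantrolene, and 93.2, 180 and 106 with LPC + dantrolene. All treated groups overlapped with vehicle, and the log2 fold changes were -0.26, -0.29 and -0.24 with adjusted p of 0.722, 0.745 and 0.908. CAMK2D, the delta subunit, measured 77.2, 66.3 and 47.5 CPM in vehicle and 117, 93.7 and 100.3 CPM with LPC, which did not overlap, at 0.70 on the log2 scale with adjusted p = 0.267. CAMK2D was called higher with LPC with only the 2 groups compared, beside 12.4% of all tested genes. The same call was made without LPC + dantrolene replicate 2, beside 11.9%. The gene that the reference names CALM2, a calmodulin gene, stood in the count table under the symbol STPG4, and reads of these genes may not be separable. Under that identifier the values were 157 to 406 CPM, with log2 fold changes of 0.70, 0.46 and 0.15 from vehicle and adjusted p of 0.246, 0.567 and 0.955.

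Calcineurin consists of a catalytic subunit (PPP3CA, PPP3CB or PPP3CC) and a regulatory subunit (PPP3R1). PPP3CA (Sscrofa11.1 chr8:119429181-119754615) measured 37.3, 29.1 and 20.2 CPM in the vehicle libraries, 70.5, 70.3 and 71.1 with LPC, 50.8, 96.1 and 66.7 with dantrolene, and 84.0, 24.7 and 87.1 with LPC + dantrolene. All LPC and dantrolene libraries were above vehicle, and the LPC + dantrolene library of isolation 2 was within the vehicle range. PPP3CA was upregulated 2.44-fold with LPC (log2 1.29, SE 0.35, adjusted p = 0.00684), 2.47-fold with dantrolene (log2 1.30, SE 0.35, adjusted p = 0.00702) and 2.26-fold with LPC + dantrolene (log2 1.18, SE 0.35, adjusted p = 0.0198). The adjusted p with LPC + dantrolene was 0.0871 with the isolation as a block, which ended that call. Each of the 3 calls was lost without vehicle replicate 2 or 3, the LPC call also without LPC replicate 2, the dantrolene call without dantrolene replicate 2, and the LPC + dantrolene call without LPC replicate 2 or LPC + dantrolene replicate 1 or 3. PPP3CB was not called, with log2 fold changes of 0.13, 0.44 and 0.15, and PPP3R1 was not called, with 0.14, 0.02 and -0.12. The difference in response between PPP3CA and PPP3CB was not tested.

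The NFAT factors are the transcription factors that calcineurin dephosphorylates. NFATC3, which had the highest mean CPM, measured 90.2, 74.9 and 67.4 CPM in the vehicle libraries, 82.3, 52.0 and 72.0 with LPC, 86.7, 79.0 and 85.9 with dantrolene, and 96.3, 58.6 and 87.4 with LPC + dantrolene. All groups overlapped with vehicle, and the log2 fold changes were -0.17, 0.11 and 0.06 with adjusted p of 0.806, 0.903 and 0.981. NFATC2 measured 3.77, 2.45 and 3.43 CPM in vehicle and 7.11, 7.81 and 4.58 CPM with dantrolene. Those ranges did not overlap, and the log2 fold change of 1.01 had an adjusted p of 0.159. Without LPC + dantrolene replicate 2, NFATC2 was called higher with dantrolene, beside 11.2% of all tested genes. NFATC1 had log2 fold changes of -0.64, -0.43 and 0.06, and NFATC4 of -0.46, -0.05 and 0.06.

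The RCAN proteins bind calcineurin, and RCAN1 is itself an established target of NFAT. RCAN2 (Sscrofa11.1 chr7:40979814-41282869) measured 33.2, 52.2 and 44.2 CPM in the vehicle libraries, 29.7, 18.7 and 41.6 with LPC, 19.2, 27.3 and 19.5 with dantrolene, and 27.3, 13.5 and 12.7 with LPC + dantrolene. Every dantrolene and LPC + dantrolene library was below vehicle. RCAN2 was downregulated 2.42-fold with LPC + dantrolene (log2 -1.27, SE 0.35, adjusted p = 0.00919), a call lost without vehicle replicate 2 or LPC + dantrolene replicate 3. With dantrolene alone the log2 fold change was -0.97 with an adjusted p of 0.0633, and with LPC -0.53 with 0.522. RCAN1 measured 79.5 to 165 CPM in vehicle and 81.9 to 167 CPM in the treated libraries, with log2 fold changes of 0.10, 0.06 and 0.34.

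**Figure D2:**
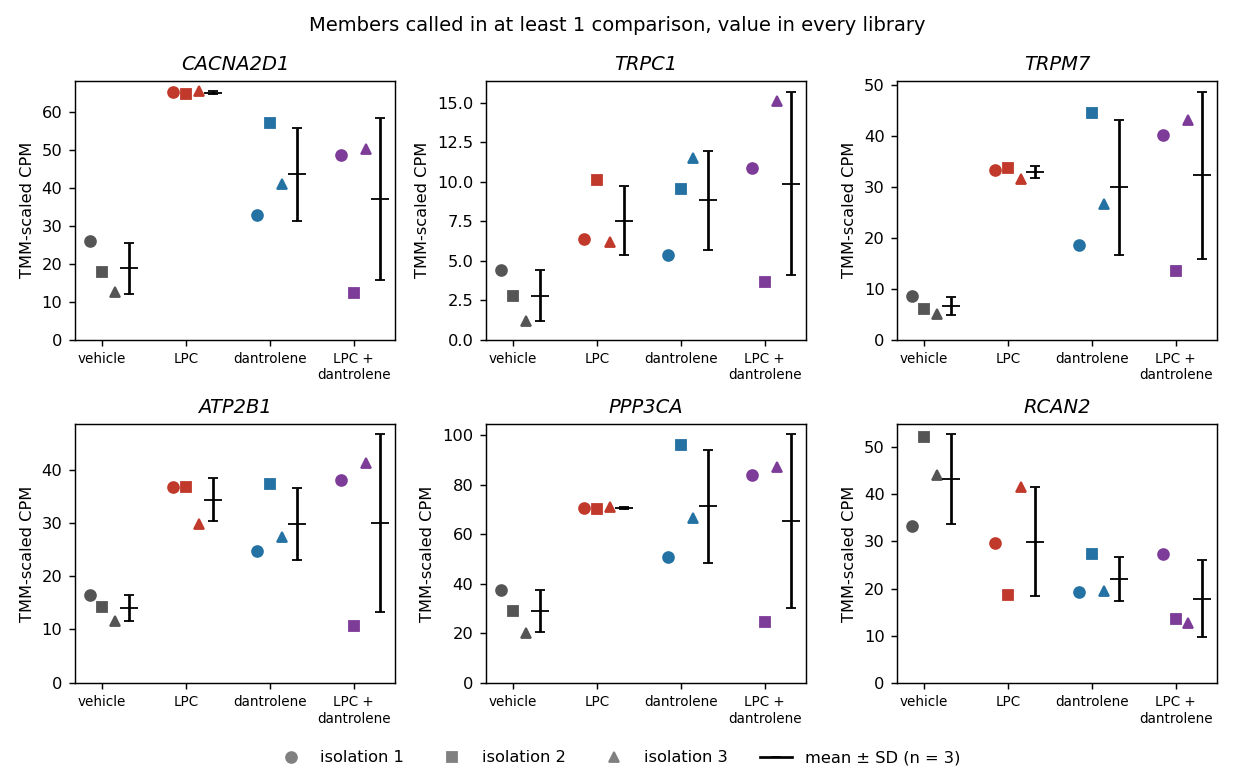
TMM-scaled CPM (y axis, from 0) of the 6 members called in at least 1 comparison, for the 12 libraries by group (x axis), with marker shape for the isolation and a black bar for the mean ± SD of 3 libraries. Vehicle TRPM7 lies between 5.11 and 8.63 CPM, below all 9 treated libraries, and the LPC + dantrolene library of isolation 2 is the lowest of its group for all except RCAN2.

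Whether dantrolene altered the response to LPC was asked directly. For LPC + dantrolene against LPC, 0 members were called in either direction (edgeR), with 2 higher and 3 lower at an unadjusted p under 0.05, beside 0.219% and 0.288% of all tested genes called. Values of NFATC2 and NFATC4 lay above, and those of CACNA2D1, TRPC6 and TRPV2 below, all LPC values, beside 4.86% and 4.93% of all tested genes. The log2 fold change of TRPM7 in this comparison was -0.03 (95% interval -0.72 to 0.67), and that of PPP3CA was -0.11 (95% interval -0.79 to 0.57). For LPC + dantrolene against dantrolene, 0 members were called and 0 had an unadjusted p under 0.05, beside 0.0151% higher and 0.00757% lower of all tested genes. No member lay above or below all dantrolene values there, beside 2.54% and 2.17% of all tested genes. DESeq2 called 0 members in both of these comparisons. The medians of the 36 members were 0.01 and 0.06.

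The interaction, the effect of LPC in the presence of dantrolene less its effect without, was called for TRPM7 and CACNA2D1, both negative, beside 4.49% of all tested genes called negative and 0.159% positive. For TRPM7 the log2 effect of LPC was 2.31 without dantrolene and 0.11 with it, a difference of -2.21 (SE 0.51, adjusted p = 0.00341). For CACNA2D1 it was 1.79 and -0.24, a difference of -2.03 (SE 0.50, adjusted p = 0.00685). In both genes dantrolene alone was already above vehicle, and the level with LPC + dantrolene was not above that with dantrolene alone beyond the error. PPP3CA, ATP2B1 and TRPC1 had differences of -1.42, -1.28 and -1.26, with adjusted p of 0.0784, 0.139 and 0.275. The same 3 vehicle libraries enter every such difference. Both calls were lost without LPC replicate 2 or dantrolene replicate 2, where 0.0293% and 0.228% of all tested genes were called negative. That of CACNA2D1 was also lost without vehicle replicate 2 and on total counts alone, and 4 members were called without LPC + dantrolene replicate 3, beside 6.52% of all tested genes.

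**Figure D3:**
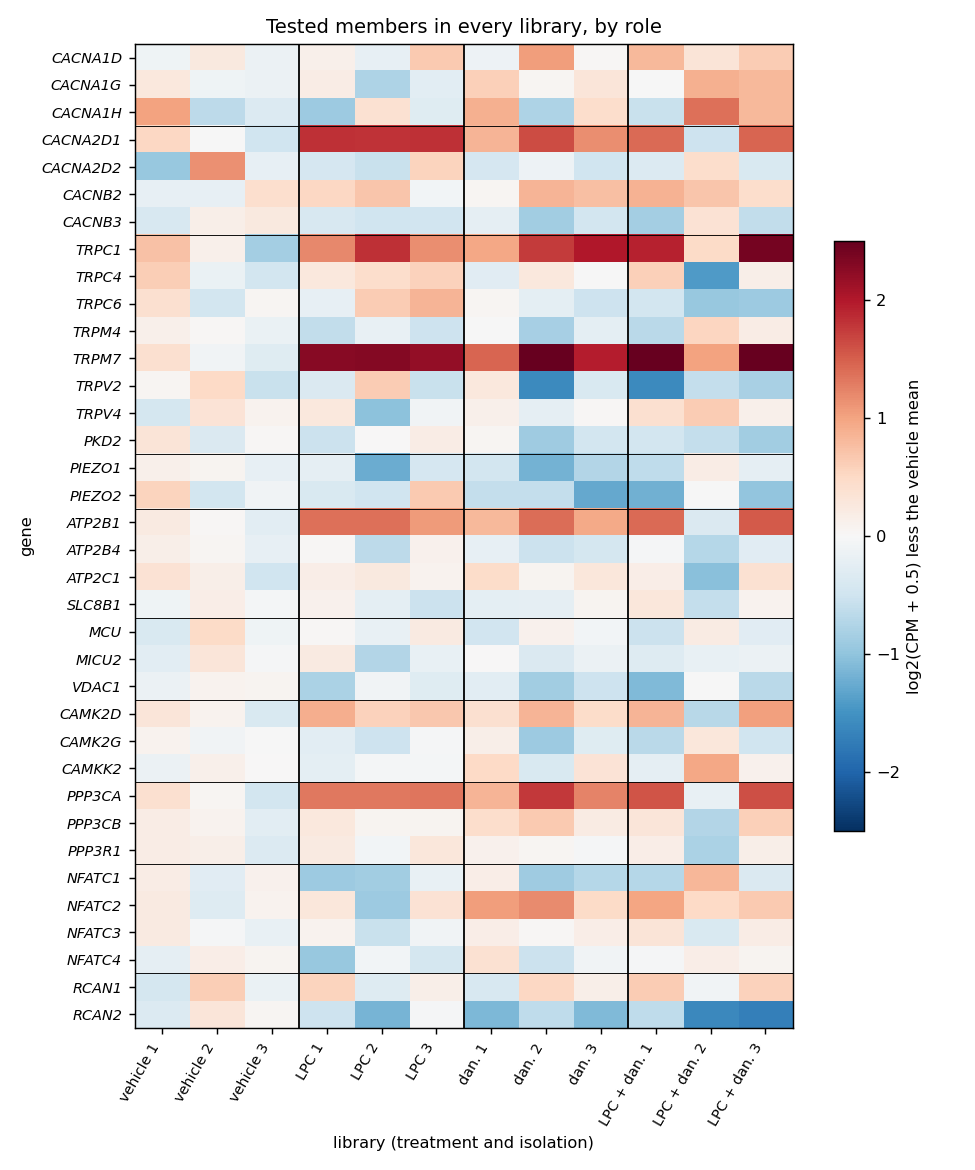
Log2(CPM + 0.5) less the mean of the vehicle libraries (colour scale, -2.5 to 2.5) for the 36 tested members (rows, by role) in the 12 libraries (columns, by treatment and isolation). TRPM7, CACNA2D1, TRPC1, ATP2B1 and PPP3CA are above 0 in all LPC and dantrolene libraries, and their colour is weaker or reversed in the LPC + dantrolene library of isolation 2.

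The 4 libraries with the lowest TMM factors were the vehicle libraries and the LPC + dantrolene library of isolation 2, the latter singled out after its values were seen. Those 4 also held the 4 lowest values of the 12 in all 5 members called higher. This is a description with no test, because a call against vehicle already places the vehicle libraries low, and 1037 of the 1278 genes called higher in at least 1 comparison with vehicle (81.1%) had the same 4 lowest libraries. On total counts with no scaling factor the 5 members were still called higher with LPC and with dantrolene, and TRPC1, TRPM7, ATP2B1 and PPP3CA with LPC + dantrolene. Of all tested genes, 8.03%, 7.67% and 6.61% were called higher in these comparisons.

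The members also lie in long genes. In RefSeq's annotation of Sscrofa11.1, the genes called higher with LPC spanned 62.1 to 485 kb with a median of 126 kb, and the members not called had a median of 79.2 kb. Over the 10313 tested genes with a span, those called higher with LPC had a median span of 67.1 kb and those not called 27.7 kb, with 67.3 and 28.4 kb for dantrolene and 67.2 and 28.9 kb for LPC + dantrolene. When these genes were ordered by span and cut into 4 equal bins, the share called higher with LPC went from 2.02% in the shortest through 5.62% and 14.2% to 16.8% in the longest, and 33 of the 36 members were in the upper 2 bins (13 and 20). Across the 36 members, Spearman's rho between span and log2 fold change was 0.56 with LPC, 0.36 with dantrolene and 0.26 with LPC + dantrolene, beside 0.28, 0.27 and 0.24 over the 10313 genes. These are descriptions across genes measured in the same libraries, and genes are not independent replicates. RCAN2, called lower, spans 303 kb. The part of gene span in the calls was not tested.

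**Figure D4:**
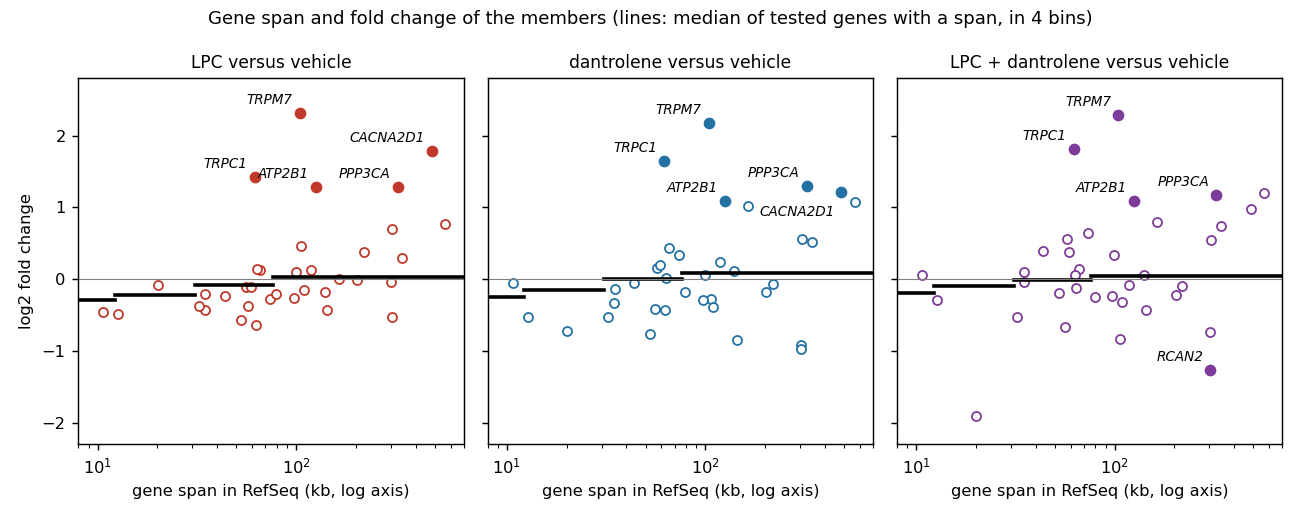
Log2 fold change (y axis) against gene span in kb (x axis, log scale, drawn from 8 to 700 kb) for the 36 tested members in each treatment compared to vehicle, with called genes filled and named. Black lines give the median of the tested genes with a span in each of 4 bins, which for LPC moves from -0.29 in the shortest to 0.04 in the longest, and the called members lie at 62.1 kb or more.

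Wider lists of genes of the same route were read in the same fit. Of 41 other genes of cation channels and their subunits or partners, 37 had a row and 19 were tested. With LPC 0 were called by edgeR (0 at an unadjusted p under 0.05), beside 8.54% of all tested genes higher and 0.144% lower. With dantrolene 0 were called (2 higher and 2 lower at an unadjusted p under 0.05), beside 7.54% and 1.26%. DESeq2 called 0 in each of the 3 comparisons with vehicle. Of all tested genes it called 8.22%, 7.14% and 5.73% higher and 0.159%, 0.772% and 0.643% lower. TRPA1, a channel opened by irritants, was called higher with LPC + dantrolene by edgeR, beside 6.23% of all tested genes. TRPA1 measured 0.381, 0.701 and 0.174 CPM in vehicle and 2.52, 0 and 10.4 CPM with LPC + dantrolene, so that the treated group spanned the vehicle range (log2 3.36, SE 0.79, adjusted p = 0.00182). The call was lost in the block fit, and when LPC + dantrolene replicate 3 or vehicle replicate 1 was left out. PKD1, the receptor-like partner of PKD2, was not called, at 729 ± 39.8 CPM in vehicle and 471 ± 133 CPM with LPC (adjusted p = 0.365 in edgeR). With dantrolene it measured 408 ± 166 CPM (log2 -0.84, adjusted p = 0.129 in edgeR). Its LPC and dantrolene libraries were all below vehicle, and the LPC + dantrolene libraries overlapped with it. P2RX7, an ATP-gated channel, was not called, with a log2 fold change of 0.96 with dantrolene (adjusted p = 0.188).

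Of 20 other pumps, exchangers and mitochondrial uptake genes, 19 had a row and 14 were tested. MICU3, a regulator of the mitochondrial uniporter, was called higher with LPC, and SLC24A3, a potassium-dependent sodium-calcium exchanger, lower with dantrolene and with LPC + dantrolene. Of all tested genes, 8.54% were called higher with LPC, and 1.26% and 0.9% lower with dantrolene and LPC + dantrolene. MICU3 measured 2.19, 0.992 and 0.697 CPM in vehicle and 1.69, 6.62 and 3.34 CPM with LPC, which overlapped (log2 1.57, SE 0.53, adjusted p = 0.0454). SLC24A3 measured 42.3, 25.7 and 42.8 CPM in vehicle, 19.8, 6.40 and 15.4 CPM with dantrolene (log2 -1.42, SE 0.39, adjusted p = 0.0100) and 9.15, 30.2 and 5.11 CPM with LPC + dantrolene (log2 -1.32, SE 0.39, adjusted p = 0.0207). All 3 calls were lost with the isolation as a block and on total counts alone, and DESeq2 called MICU3 but not SLC24A3. The MICU3 call was also lost without vehicle replicate 2 or 3, LPC replicate 2 or dantrolene replicate 2. The SLC24A3 call was lost without vehicle replicate 1, LPC replicate 2 or dantrolene replicate 2 for dantrolene, and without vehicle replicate 1 or 3, LPC replicate 1 or 2, or LPC + dantrolene replicate 1 or 3, or with only the 2 groups compared, for the combination. SLC24A5, another exchanger of the family, had 0 to 2 counts per vehicle library and 5 to 17 counts per treated library and was not called.

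Of 30 other genes of the calmodulin, CaM kinase and calcineurin route, 26 had a row and 21 were tested. With LPC, dantrolene and LPC + dantrolene, 2, 1 and 1 were called higher and 0 lower. Of all tested genes, 8.54%, 7.54% and 6.23% were called higher, and 0.144%, 1.26% and 0.9% lower. By edgeR, NFAT5, the tonicity-responsive relative of the NFAT factors that calcineurin does not control directly, was upregulated in all 3 comparisons with vehicle. It measured 10.1, 8.46 and 3.08 CPM in vehicle, 27.4, 17.6 and 31.9 CPM with LPC, 13.0, 28.6 and 20.4 CPM with dantrolene, and 22.0, 5.15 and 23.8 CPM with LPC + dantrolene. The LPC and dantrolene libraries were above vehicle, and the LPC + dantrolene library of isolation 2 was within its range. The log2 fold changes were 1.83 (SE 0.39, adjusted p = 0.000431), 1.52 (SE 0.39, adjusted p = 0.00469) and 1.23 (SE 0.39, adjusted p = 0.0327). The call with LPC held in all 19 alternatives, that with dantrolene was lost with DESeq2 and without vehicle replicate 3 or dantrolene replicate 2, and that with LPC + dantrolene was lost with DESeq2, in the block fit, on total counts alone, with only the 2 groups compared, and without any 1 of the vehicle libraries, LPC replicate 1 or 2, or LPC + dantrolene replicate 1 or 3. AKAP5, a scaffold that anchors calcineurin at the membrane, measured 0.715, 1.58 and 1.69 CPM in vehicle and 6.81, 4.07 and 5.76 CPM with LPC (log2 2.07, SE 0.53, adjusted p = 0.00369), a call lost without vehicle replicate 1. CAMK1D, a CaM kinase, was not called, with a log2 fold change of -0.95 with dantrolene (adjusted p = 0.119).

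Of 21 genes known as calcineurin-NFAT targets, all had a row and 12 were tested, among them the members TRPC6, RCAN1 and NFATC1. With LPC 0 were called in either direction by edgeR or DESeq2 (1 higher at an unadjusted p under 0.05). Of all tested genes, edgeR called 8.54% higher and 0.144% lower, and DESeq2 8.22% and 0.159%. The list's median log2 fold change was 0.16, beside -0.18 over all tested genes. With dantrolene 2 were called higher (PTGS2 and CXCL8) and 3 lower (F3, NPPB and ADAMTS1), beside 7.54% and 1.26% of all tested genes, and the median was -0.10. With LPC + dantrolene 2 were called higher (PTGS2 and CXCL8) and 1 lower (F3), beside 6.23% and 0.9% of all tested genes, with a median of 0.09. On total counts alone 1 was higher and 1 lower with dantrolene, beside 7.67% and 0.462% of all tested genes. With LPC + dantrolene 2 were higher and 0 lower on total counts, beside 6.61% and 0.393%. DESeq2 called 1 of the list lower with dantrolene and 2 higher with LPC + dantrolene, beside 0.772% and 5.73% of all tested genes. CXCL8, a chemokine that draws neutrophils, measured 1.05, 0.584 and 0.116 CPM in vehicle, 2.56, 1.47 and 0.463 CPM with LPC, 1.53, 3.50 and 8.40 CPM with dantrolene, and 8.10, 2.11 and 43.0 CPM with LPC + dantrolene. Its log2 fold changes from vehicle were 2.89 with dantrolene (adjusted p = 0.000325) and 4.88 with LPC + dantrolene (adjusted p = 6.65e-08), and it was the only gene of these lists called for LPC + dantrolene against LPC (log2 3.56, adjusted p = 7.82e-05). The dantrolene call was lost with DESeq2. The call against LPC was lost in the block fit, with DESeq2, on total counts alone, and also without LPC replicate 2 or LPC + dantrolene replicate 3, the library with 43.0 CPM.

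NPPB, the natriuretic peptide BNP, had 16, 45 and 57 counts in the vehicle libraries and 0, 3 and 0 counts with dantrolene (adjusted p = 0.000794 in edgeR), a call that held in all 18 alternatives that tested it. Counts were also low in other treated libraries, at 30, 10 and 0 with LPC and 11, 5 and 1 with LPC + dantrolene, where it was not called. F3, tissue factor, measured 22.9, 60.4 and 50.8 CPM in vehicle, 10.1, 25.6 and 21.9 CPM with dantrolene (log2 -1.22, adjusted p = 0.0240) and 27.1, 10.4 and 7.82 CPM with LPC + dantrolene (log2 -1.56, adjusted p = 0.00267). PTGS2, the inducible cyclooxygenase, had log2 fold changes of 1.06 with dantrolene (adjusted p = 0.0431) and 1.25 with LPC + dantrolene (adjusted p = 0.0145). ADAMTS1, a matrix protease, had a log2 fold change of -1.23 with dantrolene (adjusted p = 0.0334). With the isolation as a block the calls of F3 and ADAMTS1 with dantrolene, and both calls of PTGS2, were lost. On total counts alone both F3 calls and those of PTGS2 and ADAMTS1 with dantrolene were lost, and DESeq2 made none of these 4 calls. With only the 2 groups compared, the LPC + dantrolene calls of F3 and PTGS2 were lost. For F3, the dantrolene call was also lost without vehicle replicate 2 or 3, LPC replicate 1 or 2, or dantrolene replicate 1, and the LPC + dantrolene call without vehicle replicate 2 or LPC + dantrolene replicate 3. For PTGS2, the dantrolene call was lost without vehicle replicate 1 or 3, LPC replicate 1 or 2, dantrolene replicate 2 or 3, or LPC + dantrolene replicate 1, and the LPC + dantrolene call without vehicle replicate 1 or 3, LPC replicate 2, or LPC + dantrolene replicate 1 or 3. The ADAMTS1 call was lost with RLE factors and without vehicle replicate 2 or 3, LPC replicate 1 or 2, or any 1 of the dantrolene libraries.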

How the data were processed

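The study's reads came from mRNA libraries on Illumina platforms. Per the paper's methods the authors aligned them with STAR v2.7.9 and adjusted batch effects with ComBat, naming no batch variable. The submitters' processing notes also name HISAT2 2.0.5, R 4.1.1, DESeq2 1.32.0 and the build Sscrofa11.1. Which aligner made the counts, and the read counter, are not given in the sources used here. The authors deposited the ComBat-adjusted, whole-number counts per gene, not scaled for library size. Their tables of fold changes and p-values were not used, and 0 columns of the count table were left out.

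The tests used edgeR 4.0.16 in R 4.3.3 (filterByExpr, TMM, quasi-likelihood test, all 12 libraries, group as the only term, Benjamini-Hochberg adjustment), after the code was tested on simulated data. Total counts of 16489684 to 24105935 per library set the precision. Members and lists were chosen with earlier results of these data known. Members called in at least 1 comparison were named with every value, as was the highest-expressed member of each role without a call. Of each wider list, the called genes and the 3 with the smallest adjusted p were named. Same-numbered libraries come from the same primary isolation, per the labels of each sample's source. Their deviations from the group means had a median correlation of -0.15 (-0.54 to 0.21), against 0.11 between isolations, in counts already batch-adjusted. Gene spans and coordinates are RefSeq's for Sscrofa11.1. Figures were drawn with matplotlib 3.10.9. Alternatives were RLE factors, total counts alone, stricter (10 counts in every library) and no filters, the isolation as a block, only the 2 groups compared, DESeq2 1.42.0, and each library left out.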

Additional observations from a re-analysis of the deposited data

Results flagged for a closer look

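The effect of LPC differed with and without dantrolene for TRPM7 and CACNA2D1, tested as an interaction. The difference on the log2 scale was -2.21 for TRPM7 (adjusted p = 0.00341, edgeR) and -2.03 for CACNA2D1 (adjusted p = 0.00685, edgeR). TRPM7 was higher than vehicle in 3 of 3 LPC libraries and in 3 of 3 libraries of dantrolene alone, and so was CACNA2D1. Both differences remained past the threshold with the isolation as a block, with adjusted p of 0.0319 for TRPM7 and 0.0392 for CACNA2D1, and without LPC + dantrolene replicate 2, with 0.00331 and 0.00700. Both were lost without LPC replicate 2 or without dantrolene replicate 2, and that of CACNA2D1 also without vehicle replicate 2 and on total counts alone. The 2 genes are 5.56% of the 36 tested members, beside 4.49% of all tested genes called negative.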

How the results depend on the processing

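Called results of members kept their direction in all 321 recomputed values, and 265 kept their side of the threshold while 56 did not. For genes of the wider lists the numbers were 230 and 88 of 318, with no change of direction. Leaving out 1 library at a time gave 2 to 6 members higher with LPC, 1 to 6 higher and 0 to 1 lower with dantrolene, 1 to 6 higher and 0 to 3 lower with LPC + dantrolene, and 0 to 4 negative interactions. The matching shares of all tested genes were 4.9% to 11.9%, 2.77% to 11.2% and 0.383% to 2.09%, 3.42% to 12.6% and 0.308% to 2.89%, and 0.0293% to 6.52%. The median of members for LPC + dantrolene against LPC lay between -0.063 and 0.12. With only the 2 groups compared, 2 members were lower with dantrolene (PIEZO1 and RCAN2), beside 2.29% of all tested genes. With LPC + dantrolene 2 were higher and 0 lower in such a fit, beside 4.16% and 0.247% of all tested genes. The cause of these changes was not tested. With 10 counts in every library RCAN2 was also lower with dantrolene (1 member), CACNA2D1 higher with LPC + dantrolene, and the interaction of PPP3CA negative. The matching shares of all tested genes were 1.46%, 7.8% and 6.63%. On total counts alone, 0 members were lower with LPC + dantrolene and 1 interaction remained called. The matching shares of all tested genes were 0.393% lower and 1.76% negative. The members' medians there were 0.18 with dantrolene and 0.24 with LPC + dantrolene. The all-gene median moved from -0.18 to -0.0023 with LPC, from -0.11 to 0.13 with dantrolene and from -0.08 to 0.12 with LPC + dantrolene. With the isolation as a replicate block, 4, 4 and 2 members were higher with LPC, dantrolene and LPC + dantrolene. Of all tested genes, 6.6%, 5.6% and 4.23% were called higher in that fit. RCAN2 was still lower with LPC + dantrolene (0.446% of all tested genes) and both negative interactions held (2.1%). Without LPC + dantrolene replicate 2, RCAN2 was also called lower with dantrolene, beside 2.09% of all tested genes. The interaction of PPP3CA was called negative without dantrolene replicate 1, LPC + dantrolene replicate 1 or LPC + dantrolene replicate 3. Beside it, 5.61%, 5.75% and 6.52% of all tested genes were called negative. The interaction of ATP2B1 was called negative in the last of these fits. Uncalled values that changed sign were those of CACNA1H with LPC (0.30 without vehicle replicate 1, in a range of -0.77 to 0.30) and with dantrolene (range -0.18 to 0.83, with -0.14 and -0.0096 without vehicle replicates 2 and 3, and -0.18 without dantrolene replicate 1), and of NFATC3 with LPC (0.0011 on total counts) and with LPC + dantrolene (-0.088 and -0.00033 without replicates 1 and 3 of that group). The counts were batch-adjusted before deposit, and the tests do not count any degrees of freedom this used, so p-values can be too small. Low counts limit what could be detected for SLC8A1 (0 to 13 per library), SLC24A5 and TRPV2.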

Other observations

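SLC8A1, left out of the tests, had counts above 0 in 6 of 12 libraries, the highest of them 0.711 CPM in dantrolene replicate 1.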
